A study of Mus musculus with 25 samples.

Results

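The 40 genes described here are a module of DNA replication and mitosis genes, chosen by name and read from the rows of a raw count table that carry their symbols. All 40 were among the 13482 genes of the table. They were divided by role into 22 mitotic genes, 16 replication genes, and Stmn1 and H2afz, which belong to neither. The counts came from bulk RNA sequencing of 25 libraries, each made from sorted lung macrophages of mice. The mice were mixed marrow chimeras, in which cells from knockout and wild-type (WT) donors share 1 host. In the IL9R chimeras, B6/BoyJ recipients were given Il9r-/- and BoyJ WT marrow, and the stated aim was to find changes within the cell that depend on IL-9, a cytokine of T cells and mast cells. In the ARG1 chimeras the donors were labelled ARG1 CKO (conditional knockout of arginase 1) and WT. The promoter or Cre line of the CKO, the ages of the mice and the number of animals behind a library are not given in the labels.

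The tumor libraries were made from CD11c+ or CD11c- interstitial macrophages (IM), the macrophages of the lung tissue as opposed to the airspace, from lungs with B16 tumors, a mouse melanoma line. Among CD11c+ IM there were 3 Il9r KO and 2 WT libraries from IL9R chimeras, and 2 ARG1 CKO and 3 WT libraries from ARG1 chimeras. Among CD11c- IM there were 3 Il9r KO and 2 WT libraries, and 3 ARG1 CKO and 3 WT libraries. Each chimera kind also had 1 knockout and 1 WT library labelled naive, which held total macrophages and not a CD11c subset. All cells, also the WT ones, came from hosts given transplanted marrow. Whether cells of the host itself remained among them is not given in the labels. A library is named below by chimera kind, subset, genotype and the number its label carries, and "knockout" without a gene means Il9r KO and ARG1 CKO libraries together.

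A cell that divides first copies its DNA and then segregates the copies. The replication genes build the Mcm2 to Mcm7 helicase, load it on DNA (Cdc6, Cdt1) and form part of the active helicase (Gins2). They also hold the polymerases on the template (Pcna), supply nucleotides (Rrm1, Rrm2, Tyms, Tk1) and drive entry into S phase (the E cyclins Ccne1 and Ccne2). The mitotic genes encode the kinases and cyclins of mitosis (Cdk1, Ccna2, Ccnb1, Ccnb2, Plk1, Aurka, Aurkb), the spindle checkpoint and kinetochore (Bub1, Bub1b, Cenpe, Cenpf), spindle proteins and motors (Tpx2, Nusap1, Kif11, Kif18b, Kif20a), the machinery that ends mitosis (Cdc20, Ube2c), and chromosome proteins such as Mki67, Top2a and Birc5. Tissue macrophages are known to renew by local division as well as from monocytes, and both gene sets are low in resting cells.

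The promoters of 3 mitotic and 3 replication members are shown because 2 kinds of short sequence are known to mark these classes. Promoters of genes that peak late in the cell cycle often carry a cell cycle genes homology region (CHR), commonly with CCAAT boxes that bind NF-Y, while promoters of S phase genes often carry sites for E2F factors. The letters searched were TTTGAA and TTTAAA for the CHR, CCAAT for the CCAAT box, and TTTCCCGC, TTTCGCGC, TTTGCCGC and TTTGGCGC for E2F, on both strands. Each window runs from 250 bases before to 50 after the gene's start, on the gene's own strand, taken from RefSeq on the GRCm38.p6 build, with every match in capitals. The Mki67 window lies at chr7:135716330-135716629 (minus strand), that of Top2a at chr11:99024140-99024439 (minus) and that of Birc5 at chr11:117848987-117849286 (plus). The Mcm2 window lies at chr6:88898731-88899030 (minus), that of Mcm3 at chr1:20820263-20820562 (minus) and that of Mcm5 at chr8:75109259-75109558 (plus).
Mki67: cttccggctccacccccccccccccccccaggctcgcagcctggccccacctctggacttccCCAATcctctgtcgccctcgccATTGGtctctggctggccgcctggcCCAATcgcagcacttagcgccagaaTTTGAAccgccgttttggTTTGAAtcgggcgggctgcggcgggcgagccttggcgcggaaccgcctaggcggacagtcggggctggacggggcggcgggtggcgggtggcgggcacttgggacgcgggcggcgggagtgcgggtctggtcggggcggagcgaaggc
Top2a: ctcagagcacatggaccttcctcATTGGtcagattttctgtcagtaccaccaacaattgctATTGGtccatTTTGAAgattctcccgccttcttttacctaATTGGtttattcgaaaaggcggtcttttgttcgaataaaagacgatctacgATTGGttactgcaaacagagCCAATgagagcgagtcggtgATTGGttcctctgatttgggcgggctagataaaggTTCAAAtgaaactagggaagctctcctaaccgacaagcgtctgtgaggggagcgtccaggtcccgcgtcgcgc
Birc5: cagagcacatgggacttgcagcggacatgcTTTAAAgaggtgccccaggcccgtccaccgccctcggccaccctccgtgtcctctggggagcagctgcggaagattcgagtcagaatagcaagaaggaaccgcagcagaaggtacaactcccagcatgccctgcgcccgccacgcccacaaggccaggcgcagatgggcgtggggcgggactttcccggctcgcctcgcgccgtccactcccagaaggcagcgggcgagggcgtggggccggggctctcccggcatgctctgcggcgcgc
Mcm2: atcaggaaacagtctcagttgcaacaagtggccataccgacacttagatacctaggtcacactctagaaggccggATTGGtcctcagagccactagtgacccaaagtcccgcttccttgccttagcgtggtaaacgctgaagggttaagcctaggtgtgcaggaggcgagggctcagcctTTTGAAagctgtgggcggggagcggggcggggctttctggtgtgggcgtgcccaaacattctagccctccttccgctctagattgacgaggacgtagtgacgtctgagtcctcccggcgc
Mcm3: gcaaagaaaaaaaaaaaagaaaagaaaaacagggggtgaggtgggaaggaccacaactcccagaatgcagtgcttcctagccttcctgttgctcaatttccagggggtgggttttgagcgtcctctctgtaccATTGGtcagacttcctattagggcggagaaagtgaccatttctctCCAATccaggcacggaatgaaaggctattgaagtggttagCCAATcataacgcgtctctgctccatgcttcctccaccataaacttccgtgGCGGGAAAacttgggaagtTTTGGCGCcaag
Mcm5: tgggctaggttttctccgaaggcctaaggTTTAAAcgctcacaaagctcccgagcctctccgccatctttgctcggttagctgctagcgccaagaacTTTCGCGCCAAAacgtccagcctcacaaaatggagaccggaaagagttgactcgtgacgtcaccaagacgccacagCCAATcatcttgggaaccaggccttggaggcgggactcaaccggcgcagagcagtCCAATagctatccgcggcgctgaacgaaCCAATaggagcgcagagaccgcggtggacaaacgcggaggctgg

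In these windows positions are counted from the gene's start, with bases before it negative. The 2 CHR matches of Mki67 begin at -116 and -98, downstream of 3 CCAAT boxes at -188, -166 and -141. Top2a has CHR matches at -179 and -23 and 6 CCAAT boxes. Birc5 has a single CHR match at -220 and no CCAAT box. Among the replication genes, Mcm3 has no CHR match, 3 CCAAT boxes and 2 E2F matches at 20 and 39. Mcm5 has a CHR match at -221, 3 CCAAT boxes at -77, -22 and 7, and 2 overlapping E2F matches at -153 and -149. Mcm2 has a CHR match at -70 and a CCAAT box at -175 with no E2F match.

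Windows were found for 32 of the 40 members, with 33 promoters because Mcm7 has 2; Ccna2, Aurkb, Tpx2, Kif20a, Mcm4, Gins2, Ccne2 and Stmn1 were not matched. A CHR match was present in 15 of 18 mitotic promoters (83.3%) and 5 of 14 replication promoters (35.7%), against 19.6% of the 13056 promoters of genes in the count table and 27.6% of all 32851 promoters. The E2F letters ran the other way, with 6 of 14 replication promoters (42.9%) and 1 of 18 mitotic promoters (5.56%, that of Cdk1), against 3.78% of promoters of genes in the table and 2.26% of all. CCAAT boxes were in 16 of 18 mitotic promoters (88.9%) and 9 of 14 replication promoters (64.3%), against 37.5% and 37.4% of the same backgrounds. A CHR and a CCAAT box stood together in 14 mitotic promoters (77.8%) and 3 replication promoters (21.4%), against 7.64% of promoters of genes in the table. Of the 23 CHR matches in mitotic promoters, 15 lay within 60 bases of the start, with a median position of -23. These matches describe the letters only and were not tested.

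**Figure D1:**
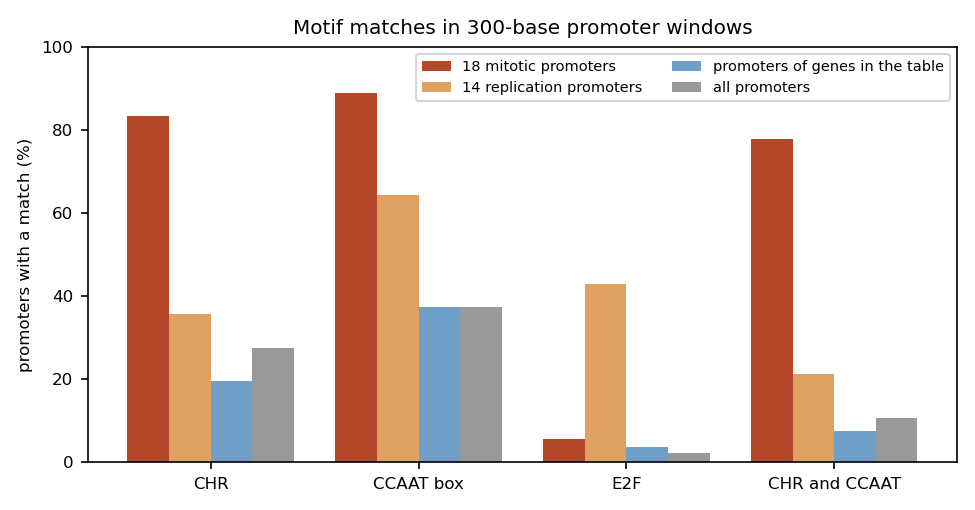
Share of 300-base promoter windows (y axis, percent) with each motif (x axis) for mitotic members, replication members, promoters of genes in the count table and all RefSeq promoters. CHR matches were in 83.3% of mitotic and 35.7% of replication promoters, and E2F matches in 5.56% of mitotic and 42.9% of replication promoters.

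The libraries held 32308968 to 56904167 counts, and 40 of 40 members passed the filter on low counts in each fit. Levels are given in CPM, counts per 1000000 after TMM scaling for composition, and a prior count of 2 was added for log2 CPM. Genes were found by symbol, because the identifiers beside them pointed to the same gene for 0 of the 40 members. Across the 21 tumor libraries the 40 rows found by symbol correlated with each other at a mean r of 0.63, and the 39 rows found by identifier at 0.0. The gene of CD11c, Itgax, had 6861 to 25625 reads in CD11c+ libraries, 443 to 2197 in CD11c- libraries and 15717 to 25457 in naive libraries. Il9r went against its label, with 83 to 562 reads in the 7 libraries labelled Il9r KO and 0 in all 12 WT libraries. The 6 libraries labelled ARG1 CKO had 0 to 61 Il9r reads, the highest in ARG1 CD11c+ CKO 1. Whether the genotype labels of the IL9R chimeras are exchanged, or the reads come from a part of the gene left in place, was not tested. If they are exchanged, every Il9r KO minus WT difference given below turns its sign, and the IL9R libraries change sides between the WT and knockout groups. In CD11c+ tumor IM the libraries labelled ARG1 CKO had 15630 to 19060 Arg1 reads, against 45104 to 102747 in WT libraries of the same chimeras. In CD11c- tumor IM they had 73472 to 106680 Arg1 reads, against 130974 to 230530 in WT libraries. The 11 B16 marker genes other than Mitf, which macrophages also express, summed to 47.9 to 1101 CPM in tumor and 3.87 to 7.23 CPM in naive libraries. The libraries labelled Il9r KO 3 stood apart, with 1101 CPM in CD11c+ and 410 CPM in CD11c- IM, against 70.5 to 124 CPM in the other tumor libraries labelled Il9r KO, and results that rest on them are given with and without them. Nothing says that libraries came from separate animals, so the p-values measure the spread between these samples only.

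Among the members, transcripts of H2afz, the histone variant H2A.Z, were by far the most abundant. Divided by exon length, the level in CD11c+ WT IM was 216 CPM per kb for H2afz, 44.2 for Pcna, 42.5 for Stmn1 (stathmin, which destabilises microtubules) and 24.8 for Mcm3. The highest mitotic genes on this scale were Cks2, a small partner of Cdk1, at 24.6 and Ccnb2, a cyclin B, at 23.1 CPM per kb. The long transcripts were low, with 2.20 CPM per kb for both Mki67 and Top2a, 0.451 for Kif11 and 0.272 for Cenpf. H2afz has close relatives in sequence, and how reads that match several places were counted is not given in the sources used here.

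Averaged over the 22 mitotic genes, log2 CPM was 2.98 to 4.52 in CD11c+ tumor IM, 1.37 to 3.65 in CD11c- tumor IM and 0.99 to 1.87 in naive macrophages. Over the 16 replication genes the mean log2 CPM was 4.41 to 5.35 in CD11c+ IM, 3.64 to 4.63 in CD11c- IM and 3.09 to 3.59 in naive macrophages. Mean log2 CPM of replication genes in every tumor library was above that in every naive library, while CD11c+ and CD11c- libraries overlapped for both sets. In a bulk library, fewer dividing cells and less of these RNAs per cell cannot be told apart.

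**Figure D2:**
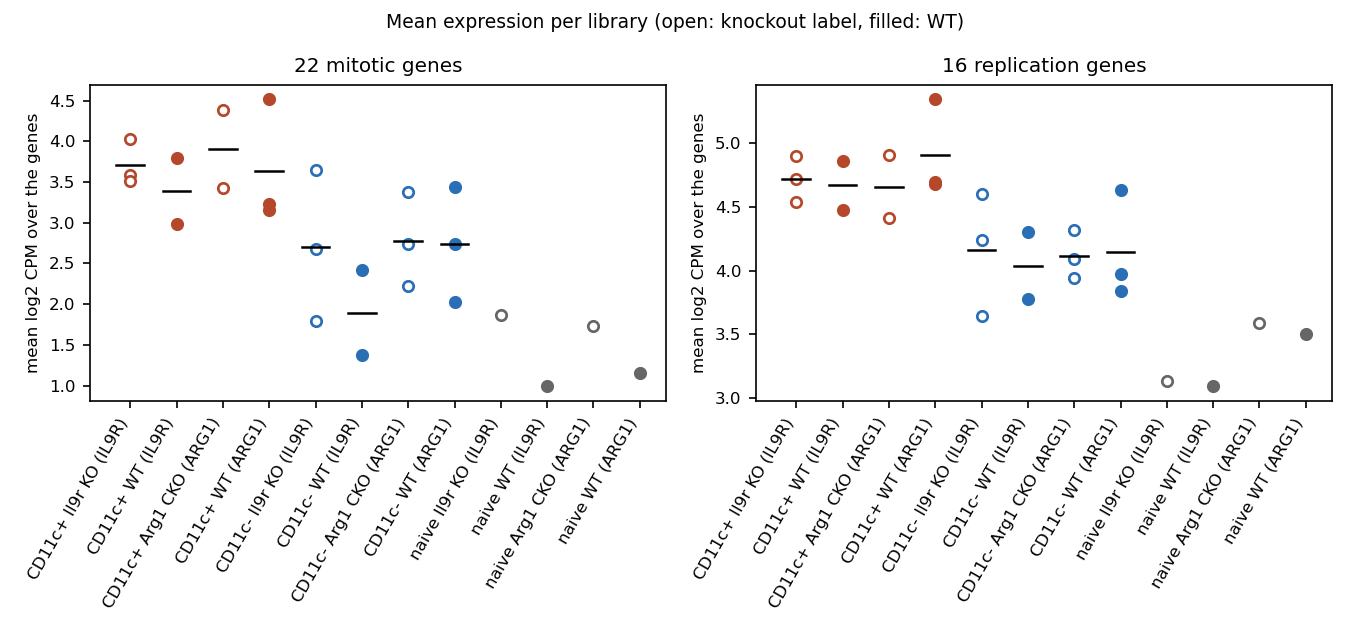
Mean log2 CPM (y axis) over the 22 mitotic genes (left) and the 16 replication genes (right) for each library, by group on the x axis, with open points for knockout labels, filled points for WT and bars for group means. Mitotic means were 2.98 to 4.52 in CD11c+ IM, 1.37 to 3.65 in CD11c- IM and 0.99 to 1.87 in naive macrophages.

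The first comparison set CD11c+ against CD11c- IM from lungs with tumors, in the 10 WT libraries, and no label says which of them came from the same animal. All 40 members had a positive log2 fold change, with a median of 0.99 against 0.0 over all genes. With edgeR's quasi-likelihood test at a Benjamini-Hochberg adjusted p under 0.05, 13 members were called higher and 0 lower, while 5.44% of the 13434 genes tested were called higher and 6.1% lower. The 13 were 8 of 22 mitotic genes, 3 of 16 replication genes, Stmn1 and H2afz. The median log2 fold change was 1.23 over the mitotic genes and 0.56 over the replication genes. The mean log2 CPM of the mitotic genes was 3.51 in CD11c+ and 2.32 in CD11c- WT IM, a difference of 1.2 with an SD of 0.71 between libraries of a group. That of the replication genes was 4.79 in CD11c+ and 4.09 in CD11c- WT IM, a difference of 0.69 with an SD of 0.38.

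Mki67, the Ki-67 antigen of cycling cells, had 33.6, 14.2, 6.38, 37.8 and 18.9 CPM in the 5 CD11c+ WT libraries (IL9R 1 and 2, then ARG1 1 to 3), against 9.55, 3.74, 3.62, 15.2 and 6.14 CPM in the CD11c- WT libraries in the same order. The ranges overlapped, with ARG1 CD11c+ WT 1 the lowest of its subset and ARG1 CD11c- WT 2 the highest of its own. The log2 fold change was 1.58 ± 0.48 (SE; edgeR adjusted p = 0.0357). Top2a, the topoisomerase that untangles chromosomes, had 26.8, 12.0, 3.91, 37.1 and 19.2 CPM in CD11c+ WT IM, against 6.21, 2.96, 5.03, 16.1 and 5.55 CPM in CD11c- WT IM. The same 2 libraries were the lowest and the highest of their subsets, the ranges overlapped, and it missed the threshold at 1.62 ± 0.55 (edgeR adjusted p = 0.0625). Cdk1, the kinase that drives entry into mitosis, had 19.5, 16.6, 18.8, 40.8 and 17.0 CPM in CD11c+ WT IM, against 6.14, 6.29, 9.00, 15.0 and 6.16 CPM in CD11c- WT IM. Every CD11c+ WT library was above every CD11c- WT library for Cdk1, with a log2 fold change of 1.43 ± 0.35 (edgeR adjusted p = 0.0108).

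The other mitotic genes called higher in CD11c+ WT IM included Birc5 (survivin, of the chromosomal passenger complex) at 1.54 ± 0.34, Ccna2 (cyclin A2) at 1.48 ± 0.44, Ccnb2 at 1.27 ± 0.34 and Cks2 at 0.92 ± 0.19 on the log2 scale, with edgeR adjusted p-values of 0.00531, 0.0334, 0.0184 and 0.00403. Birc5 had 25.4, 22.4, 41.3, 55.5 and 26.5 CPM in CD11c+ WT IM, against 9.95, 4.55, 8.40, 21.7 and 17.2 CPM in CD11c- WT IM, with no overlap. The called genes also included Nusap1, which bundles spindle microtubules, and Kif18b, a kinesin that shortens microtubules. Kif18b is given no fold because both IL9R CD11c- WT libraries held 0 of its reads, where a count of 0 allows up to 3 reads per library. Its reads were 110, 3, 148, 393 and 40 in CD11c+ WT IM, against 0, 0, 120, 128 and 183 in CD11c- WT IM, so the ranges overlapped widely. The lowest fold among all members was that of Kif11, the motor that parts the spindle poles, at 0.01 ± 0.67 (edgeR adjusted p = 0.9999).

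Among replication genes, the calls were Mcm7 of the helicase (1.2 ± 0.28, edgeR adjusted p = 0.00724), and Tk1 and Tyms of thymidine nucleotide supply (1.43 ± 0.35 and 0.93 ± 0.24, adjusted p = 0.0109 and 0.0158). Mcm2 had 52.1, 27.4, 42.9, 78.5 and 46.2 CPM in CD11c+ WT IM, against 38.2, 23.2, 20.6, 52.8 and 36.6 CPM in CD11c- WT IM. It overlapped between the groups, at 0.48 ± 0.30 (edgeR adjusted p = 0.329). Rrm2, the regulated subunit of ribonucleotide reductase, had 33.5, 21.5, 24.5, 54.8 and 24.3 CPM in CD11c+ WT IM, against 21.9, 9.48, 9.59, 23.9 and 11.1 CPM in CD11c- WT IM. Its log2 fold change was 1.01 ± 0.39 (edgeR adjusted p = 0.109). Pcna had 105, 111, 94.6, 120 and 99.2 CPM in CD11c+ WT IM, against 76.7, 91.9, 111, 98.2 and 91.3 CPM in CD11c- WT IM, and did not pass at 0.20 ± 0.13 (adjusted p = 0.353).

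H2afz gave the smallest adjusted p of the 40. It had 324, 392, 388, 438 and 373 CPM in CD11c+ WT IM, against 178, 159, 181, 189 and 229 CPM in CD11c- WT IM, a log2 fold change of 1.04 ± 0.14 (edgeR adjusted p = 0.000111). Stmn1 had 61.0, 60.1, 85.8, 129 and 72.1 CPM in CD11c+ WT IM, against 26.7, 12.3, 19.3, 52.4 and 38.2 CPM in CD11c- WT IM, at 1.5 ± 0.35 (adjusted p = 0.00779). For both, every CD11c+ library was above every CD11c- library. The same held for 8 members, Birc5, Ccnb2, Cdk1, Cks2, Mcm7, Tyms, Stmn1 and H2afz, against 4.75% of all 13482 genes. For 0 members every CD11c+ library was below, against 3.82% of genes.

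The 13 calls were 6 without IL9R CD11c- WT 2 and 7 without IL9R CD11c+ WT 1, DESeq2 called 21, and a fit with the label number as a block called 20. Calls over all genes were 731 higher and 819 lower in the main fit. They were 1118 and 1056 with DESeq2, and 902 and 1065 with the block. Birc5, Cks2, Stmn1 and H2afz passed under every one of 15 alternative settings, while Mki67 and Ccna2 each lost the call under 6. Within the IL9R chimeras alone edgeR called Kif18b and H2afz (1.37% of genes were called higher), and within the ARG1 chimeras alone Mcm7 and H2afz (1.98%). Alveolar macrophage markers (15 of 15 in the table) moved with the subset, with a summed level of 616 to 7335 CPM in CD11c+ WT IM, against 333 to 556 CPM in CD11c- WT IM. So did dendritic cell markers (9 of 9), at 137 to 315 CPM in CD11c+ and 5.49 to 53.6 CPM in CD11c- WT IM, and T and NK cell markers (14 of 15), at 22.8 to 82.7 CPM in CD11c+ and 3.30 to 10.4 CPM in CD11c- WT IM. Of the genes of the T cell receptor complex, Cd3d summed to 31 reads in CD11c+ and 8 in CD11c- WT IM, Cd3g to 44 and 7 reads, and Cd3e to 0 and 7 reads. The part of these cells in the result was not tested. Monocyte markers (7 of 7) ran the other way, at 755 to 1450 CPM in CD11c+ and 2266 to 3325 CPM in CD11c- WT IM, as did B16 markers without Mitf, at 47.9 to 87.6 CPM in CD11c+ and 76.0 to 154 CPM in CD11c- WT IM.

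The same comparison in knockout libraries used no WT sample. Of the 40 members, 38 had a positive log2 fold change, with a median of 0.91 against 0.0 over all genes. There edgeR called 6 members higher and 0 lower, while 5.91% of genes were called higher and 6.36% lower. They were Ccnb2 (0.97 ± 0.31, edgeR adjusted p = 0.0498), Plk1, the polo-like kinase of mitosis (1.18 ± 0.33, 0.0223), Mcm3 (0.58 ± 0.18, 0.0392), Mcm7 (1.00 ± 0.26, 0.0128), Rrm2 (1.14 ± 0.37, 0.0486) and H2afz (0.73 ± 0.13, 0.000881). Ccnb2, Mcm7 and H2afz were called in WT libraries too, which is 50% of the knockout calls and 23.1% of the WT calls.

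H2afz had 376, 363, 287, 390 and 346 CPM in the 5 CD11c+ knockout libraries (Il9r KO 1 to 3, then ARG1 CKO 1 and 2), against 159 to 264 CPM in the 6 CD11c- knockout libraries. Mcm7 had 37.0, 40.4, 50.7, 46.8 and 43.1 CPM in CD11c+ knockout IM, against 10.1 to 35.3 CPM in CD11c- knockout IM. These were the 2 members whose groups did not overlap, while 4.39% of all genes stood wholly higher and 5.22% wholly lower. Mki67 had 30.2, 14.3, 24.6, 30.4 and 15.8 CPM in CD11c+ knockout IM, against 5.41 to 16.8 CPM (median 11.3) in CD11c- knockout IM. It did not pass, at 1.07 ± 0.44 (edgeR adjusted p = 0.129), with CD11c+ Il9r KO 2 and ARG1 CKO 2 below the highest CD11c- library.

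The others of the 6 genes followed throughout did not pass either, apart from Rrm2. Top2a had 16.6, 15.0, 42.6, 31.1 and 16.9 CPM in CD11c+ knockout IM, against 3.59 to 17.4 CPM in CD11c- knockout IM (1.17 ± 0.50, edgeR adjusted p = 0.15). Cdk1 had 24.5, 16.4, 18.4, 32.6 and 14.9 CPM in CD11c+ knockout IM, against 5.58 to 18.0 CPM in CD11c- knockout IM (0.89 ± 0.32, adjusted p = 0.0806). Both overlapped between the subsets. Mcm2 gave 0.60 ± 0.28 (edgeR adjusted p = 0.194) and Pcna 0.10 ± 0.12 (0.678). The ends of the range were Cenpe, a kinetochore motor, at 1.60 ± 0.55 (adjusted p = 0.0616), and Cdc6, a helicase loader, at -0.57 ± 0.37 (0.375).

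The knockout count moved with single libraries. It was 1 without ARG1 CD11c+ CKO 1, and 2 without each of IL9R CD11c- KO 1, IL9R CD11c- KO 2 and ARG1 CD11c- CKO 1. It was 3 without each of IL9R CD11c+ KO 3 and ARG1 CD11c- CKO 3, and 18 without IL9R CD11c- KO 3. Without both libraries labelled Il9r KO 3 it was 11, DESeq2 called 12, and a fit with the label number as a block called 18. Calls over all genes were 794 higher and 855 lower in the main fit, and 679 and 721 without both libraries labelled Il9r KO 3. They were 1027 and 1115 with DESeq2, and 1013 and 1094 with the block. H2afz kept its call under all 17 alternatives, and Mcm7 under all but 1. Alveolar markers summed to 1724 to 11951 CPM in CD11c+ knockout IM, against 324 to 556 CPM in CD11c- knockout IM. Dendritic cell markers were at 140 to 304 CPM in CD11c+ and 8.02 to 72.7 CPM in CD11c- knockout IM, T and NK cell markers at 41.0 to 217 CPM in CD11c+ and 4.53 to 24.6 CPM in CD11c- knockout IM, and monocyte markers at 313 to 828 CPM in CD11c+ and 2127 to 2963 CPM in CD11c- knockout IM. The Cd3 genes held 455 reads in IL9R CD11c+ KO 3, against 0 to 23 in the other CD11c+ knockout libraries. The part of these cells in the result was not tested.

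**Figure D3:**
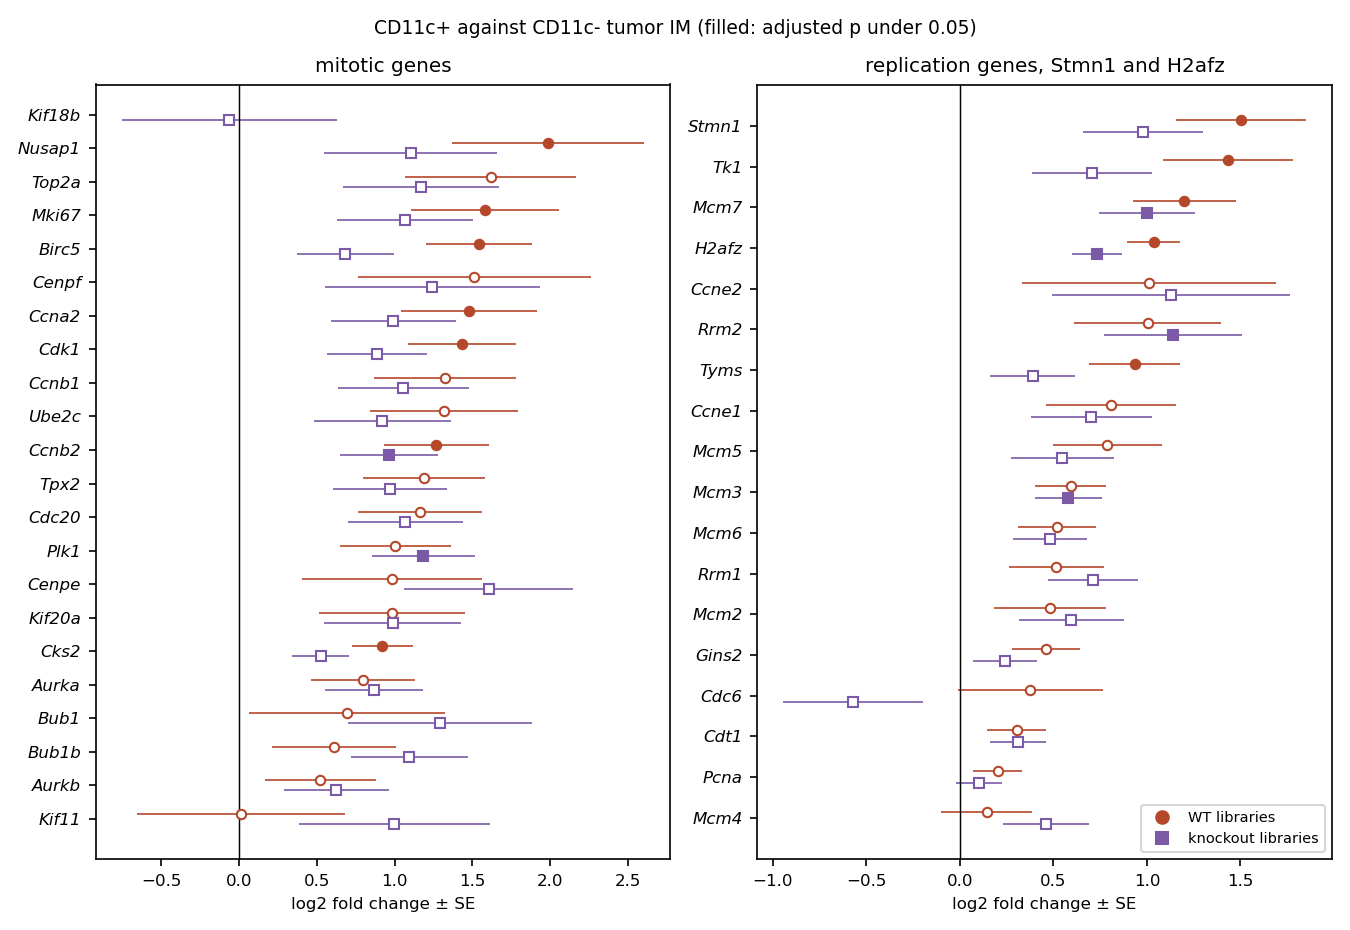
Log2 fold change ± SE (x axis) of each member (y axis) between CD11c+ and CD11c- tumor IM in WT libraries (circles) and knockout libraries (squares), filled where the edgeR adjusted p was under 0.05. H2afz (1.04 in WT and 0.73 in knockout) and Mcm7 (1.2 and 1.0) were called in both, and Kif18b in WT is not drawn because 2 libraries held 0 reads.

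Libraries of 2 subsets that carry the same chimera kind, genotype and number can be set side by side, though these numbers were not taken as pairs. Same-numbered libraries deviated together at r of 0.19 to 0.4 in IL9R chimeras and -0.15 to 0.35 in ARG1 chimeras. The mean log2 CPM of mitotic genes was higher in CD11c+ than in CD11c- IM in all 10 matches by number. The difference ran from 0.05 in ARG1 CKO 2 to 2.16 in ARG1 CKO 1. Between 26 and 39 of the 40 members were higher in the CD11c+ library of a match, and the share of all genes was not counted.

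The second comparison set tumor IM against naive macrophages, which differ in tumor and also in the sort, since naive libraries held total macrophages. Itgax was at 388 to 554 CPM in naive libraries, against 194 to 552 CPM in CD11c+ and 11.4 to 49.0 CPM in CD11c- tumor libraries. The CD11c- contrast with naive cells therefore also differs in this marker. CD11c+ and CD11c- IM were compared with the same naive libraries. In CD11c+ WT IM, 32 members were called higher and 0 lower against naive WT cells, while 13.7% of the 13170 genes tested passed as higher and 9.54% as lower. The 32 were 17 of 22 mitotic genes, 13 of 16 replication genes, Stmn1 and H2afz, and the median log2 fold change of the 40 was 2.17. In CD11c- WT IM, 15 members were called higher and 1 lower, while 13% of genes were called higher and 10.2% lower, and the median over the 40 was 1.08. The 16 calls were 7 mitotic genes higher and 1 lower, and 8 replication genes higher.

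Ccnb1, the main cyclin of mitosis, had the largest fold in both subsets. It had 17.1, 15.5, 22.8, 49.2 and 17.1 CPM in CD11c+ WT IM and 8.50, 5.74, 3.49, 18.7 and 9.95 CPM in CD11c- WT IM, against 0.849 and 1.33 CPM in naive WT macrophages. Neither subset overlapped with the naive libraries. The log2 fold change over naive was 4.42 ± 0.65 in CD11c+ IM (edgeR adjusted p = 0.000494) and 3.05 ± 0.60 in CD11c- IM (0.00212). The Cdk1 values given above for WT IM stood against 1.21 and 4.06 CPM in naive WT macrophages, at 3.19 ± 0.49 in CD11c+ IM (edgeR adjusted p = 0.000618) and 1.76 ± 0.45 in CD11c- IM (0.0109).

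Other mitotic genes called in both subsets were Birc5 (3.53 ± 0.49 in CD11c+ IM and 2.02 ± 0.45 in CD11c- IM over naive), Ccnb2 (3.39 ± 0.46 and 2.15 ± 0.43), Plk1 (3.46 ± 0.55 and 2.47 ± 0.53), and Cdc20 and Ube2c of the complex that ends mitosis. Cdc20 was at 2.96 ± 0.46 in CD11c+ IM and 1.82 ± 0.43 in CD11c- IM, and Ube2c at 3.79 ± 0.64 and 2.51 ± 0.60. Their edgeR adjusted p-values ran from 0.000315 to 0.00738. Naive WT levels of Birc5 were 2.61 and 2.78 CPM, below all 10 WT tumor libraries.

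Mki67, Top2a and Cks2 had folds below the mitotic medians, which were 2.83 in CD11c+ IM and 1.5 in CD11c- IM. Mki67 had 10.2 and 6.91 CPM in naive WT macrophages, within the range of the CD11c- WT libraries. It did not pass in either subset, at 1.42 ± 0.67 in CD11c+ IM (edgeR adjusted p = 0.142) and -0.12 ± 0.62 in CD11c- IM (0.915). Top2a had 3.78 and 1.90 CPM in naive WT macrophages, with a called fold of 2.77 ± 0.82 in CD11c+ IM (edgeR adjusted p = 0.0244) and 1.26 ± 0.76 in CD11c- IM, which did not pass (0.258). Cks2 was the member called lower. It had 20.0, 20.2, 14.1, 17.5 and 13.1 CPM in CD11c+ WT IM and 9.48, 9.68, 8.02, 6.62 and 11.2 CPM in CD11c- WT IM, against 17.0 and 22.8 CPM in naive WT macrophages. Its CD11c- libraries were all below the naive ones, at -1.11 ± 0.26 (edgeR adjusted p = 0.00703), and its CD11c+ libraries overlapped with them, at -0.20 ± 0.27 (0.64).

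The helicase genes differed among themselves. Mcm5 had 63.3, 47.3, 92.2, 92.8 and 59.3 CPM in CD11c+ WT IM and 50.5, 23.6, 27.5, 52.9 and 40.4 CPM in CD11c- WT IM, against 12.9 and 14.2 CPM in naive WT macrophages. All 10 tumor libraries were above both naive ones, and the folds were 2.37 ± 0.35 in CD11c+ IM (edgeR adjusted p = 0.000495) and 1.52 ± 0.33 in CD11c- IM (0.0041). Mcm2, at 10.1 and 15.7 CPM in naive WT macrophages, gave 1.93 ± 0.40 in CD11c+ IM (edgeR adjusted p = 0.00323) and 1.42 ± 0.38 in CD11c- IM (0.0148). Mcm7 was at 19.0 and 30.2 CPM in naive WT macrophages, which lay within its range of 15.1 to 31.8 CPM in CD11c- WT IM.

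Of the remaining replication genes followed, Rrm2 was at 3.35 and 5.39 CPM in naive WT macrophages, below every WT tumor library, with folds of 2.88 ± 0.51 in CD11c+ IM (edgeR adjusted p = 0.00137) and 1.82 ± 0.48 in CD11c- IM (0.0125). Tk1 was called in both subsets, at 2.94 ± 0.48 (adjusted p = 0.000845) in CD11c+ IM. Pcna was at 49.4 and 74.5 CPM in naive WT macrophages and all WT tumor libraries were above, so that the small folds of 0.81 ± 0.20 in CD11c+ IM (edgeR adjusted p = 0.00874) and 0.62 ± 0.19 in CD11c- IM (0.0316) passed. Cdt1, which licenses replication origins, was called in both at 1.4 ± 0.24 and 1.08 ± 0.23 (adjusted p = 0.00111 and 0.004). Cdc6 and Gins2 were called in both subsets as well, and Stmn1 in CD11c+ IM at 2.34 ± 0.40 (adjusted p = 0.00111).

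The naive side of the WT contrast rests on 2 libraries. Without IL9R naive WT the calls were 13 in CD11c+ IM and 8 in CD11c- IM, and without ARG1 naive WT they were 17 and 6. Calls over all genes were fewer as well: in CD11c+ IM they were 560 higher and 472 lower without IL9R naive WT and 896 higher and 335 lower without ARG1 naive WT, against 1798 and 1257 with both. B16 markers without Mitf moved with the contrast, at 47.9 to 87.6 CPM in CD11c+ WT IM and 76.0 to 154 CPM in CD11c- WT IM, against 4.88 and 4.24 CPM in naive WT macrophages. T and NK cell markers ran the other way for both subsets, at 22.8 to 82.7 CPM in CD11c+ WT IM and 3.30 to 10.4 CPM in CD11c- WT IM, against 107 and 217 CPM in naive WT macrophages. Cd3d, Cd3e and Cd3g together summed to only 0.467 and 1.17 CPM in these naive libraries (22 and 53 reads). Alveolar markers were at 616 to 7335 CPM in CD11c+ WT IM and 333 to 556 CPM in CD11c- WT IM, against 695 and 1265 CPM in naive WT macrophages. Monocyte markers were at 755 to 1450 CPM in CD11c+ WT IM and 2266 to 3325 CPM in CD11c- WT IM, against 882 and 749 CPM in naive WT macrophages. The part of these cells in the result was not tested.

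**Figure D4:**
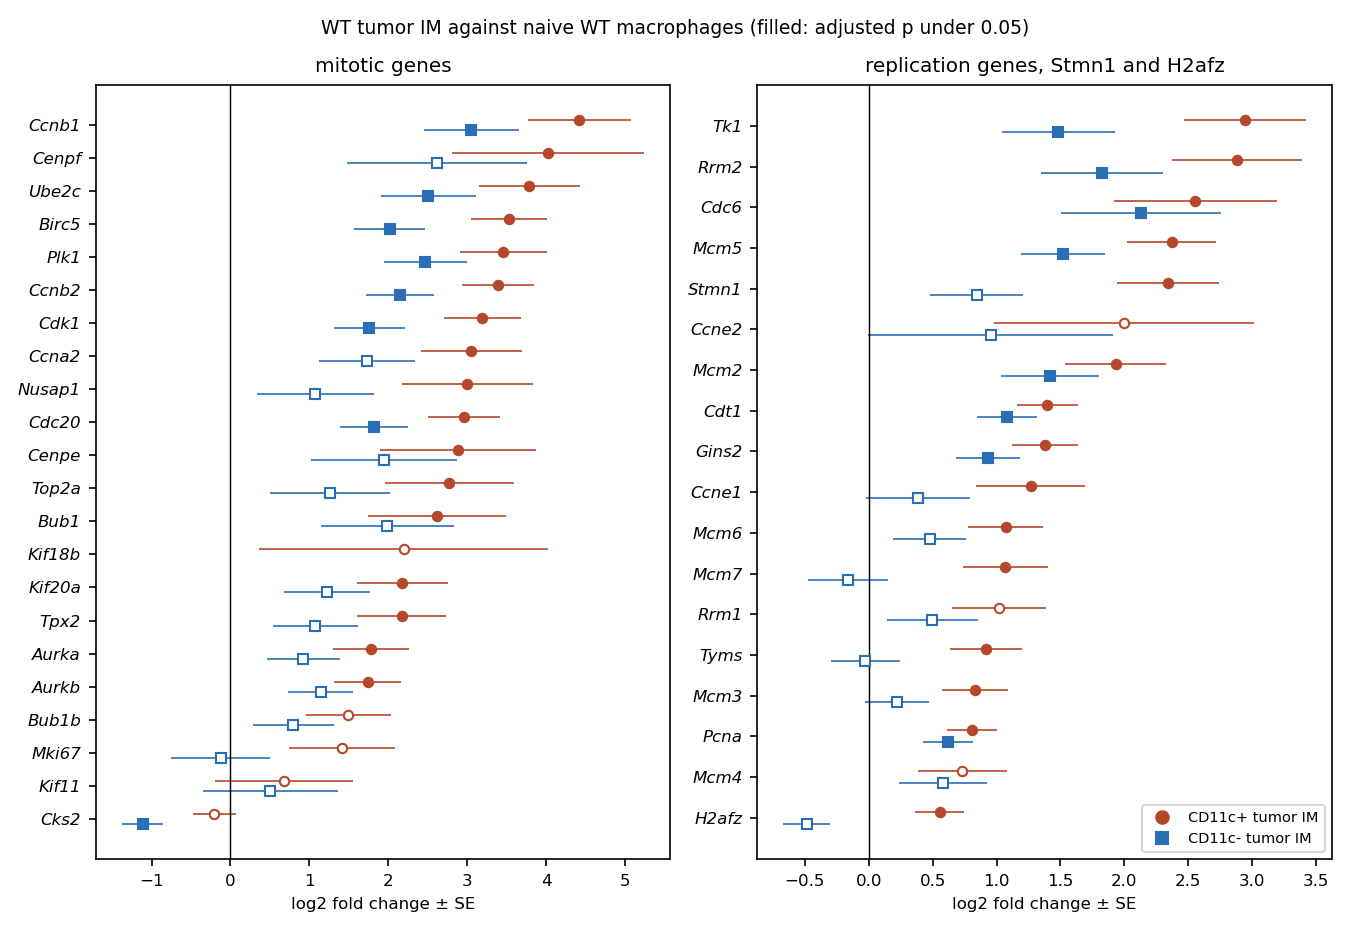
Log2 fold change ± SE (x axis) of each member (y axis) in WT CD11c+ IM (circles) and WT CD11c- IM (squares) over the same naive WT macrophages, filled where the edgeR adjusted p was under 0.05. Ccnb1 had the highest fold in both subsets (4.42 and 3.05), Cks2 lay at -0.20 in CD11c+ IM and -1.11 in CD11c- IM, and Kif18b in CD11c- IM is not drawn because 2 libraries held 0 reads.

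In knockout libraries, none of which entered the WT fit, CD11c+ IM had 17 members called higher and 0 lower against the 2 naive knockout libraries, while 3.02% of the 13356 genes passed as higher and 2.7% as lower. The median log2 fold change was 1.75. CD11c- IM had 8 called higher and 1 lower, while 11.3% of genes were called higher and 11.7% lower, and the median was 1.01. In CD11c+ IM, 16 genes were called in both WT and knockout, which is 94.1% of the knockout calls and 50% of the WT calls. In CD11c- IM the shared calls were 8, or 88.9% of the knockout calls and 50% of the WT calls.

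Cdk1 had 2.83 and 3.18 CPM in the naive knockout libraries (IL9R, then ARG1), below all 11 knockout tumor libraries. Its log2 fold change was 2.85 ± 0.49 in CD11c+ IM (edgeR adjusted p = 0.00955) and 1.96 ± 0.46 in CD11c- IM (0.00844). Ccna2 had the highest fold in CD11c+ knockout IM, at 3.19 ± 0.63 (adjusted p = 0.015), and 2.21 ± 0.59 in CD11c- knockout IM (0.0161), with 22.5, 19.0, 29.2, 42.9 and 17.6 CPM in the CD11c+ and 3.38 to 21.8 CPM in the CD11c- libraries, against 3.08 and 2.7 CPM in naive knockout macrophages. Birc5 and Ccnb2 were called in both subsets too. Birc5 was at 2.75 ± 0.47 in CD11c+ IM and 2.07 ± 0.44 in CD11c- IM (adjusted p = 0.00886 and 0.00515), and Ccnb2 at 2.90 ± 0.51 and 1.93 ± 0.48 (0.0101 and 0.0112).

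Among replication genes, Gins2, of the active helicase, was at 1.53 ± 0.28 in CD11c+ knockout IM and 1.31 ± 0.27 in CD11c- knockout IM (edgeR adjusted p = 0.0108 and 0.00447). Mcm5 was at 1.87 ± 0.40 and 1.34 ± 0.38 (adjusted p = 0.0201 and 0.021), and Tk1 and Cdt1 were called in both subsets as well. Mcm2 and Rrm2 were called only in the CD11c+ contrast, and the difference between the subsets' contrasts is that of CD11c+ against CD11c- IM given above. Mcm2 was at 1.27 ± 0.34 in CD11c+ IM (edgeR adjusted p = 0.0465) and 0.67 ± 0.32 in CD11c- IM (0.156), and Rrm2 at 2.18 ± 0.52 (0.0308) and 1.05 ± 0.48 (0.134). Pcna did not pass in either, at 0.57 ± 0.18 (0.0761) and 0.48 ± 0.18 (0.0646).

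Ccnb1, Plk1, Tpx2, Aurka, Ube2c, Rrm1 and Stmn1 were called in CD11c+ knockout IM alone of the 2 contrasts, with Ccnb1 at 2.68 ± 0.62 (edgeR adjusted p = 0.0272), Plk1 at 2.61 ± 0.56 (0.0212) and Tpx2, which nucleates spindle microtubules, at 2.23 ± 0.49 (0.0231). Mki67 was at 14.8 and 7.59 CPM in the naive knockout libraries, and its folds of 1.04 ± 0.45 in CD11c+ IM (adjusted p = 0.177) and -0.01 ± 0.42 in CD11c- IM did not pass. Top2a, at 9.70 and 6.07 CPM in naive knockout macrophages, did not pass in either subset, at 1.63 ± 0.59 (adjusted p = 0.111) and 0.48 ± 0.54. Cks2 was again the member called lower in CD11c- IM, at -0.95 ± 0.22 (adjusted p = 0.00705), and stood at -0.44 ± 0.23 (0.27) in CD11c+ IM.

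Without ARG1 naive CKO, 0 members passed in CD11c+ knockout IM and 1 in CD11c- knockout IM, with medians of 1.73 and 0.97. Most calls over all genes were lost with that library too, leaving 2 higher and 1 lower in CD11c+ and 195 higher and 179 lower in CD11c- knockout IM, against 403 and 360 in CD11c+ and 1513 and 1564 in CD11c- knockout IM with it. Without IL9R naive KO or without ARG1 CD11c+ CKO 1, 8 passed in CD11c+ knockout IM, and without IL9R CD11c- KO 2, 17 passed in CD11c- knockout IM. DESeq2 called 32 in CD11c+ and 15 in CD11c- knockout IM. Its calls over all genes were 1167 higher and 617 lower in CD11c+ and 2103 higher and 1666 lower in CD11c- knockout IM. Without IL9R CD11c+ KO 3 the CD11c+ count was 22, with 1239 higher and 884 lower over all genes. Without IL9R CD11c- KO 3 the CD11c- count was 8 (7 higher and 1 lower), with 1509 higher and 1471 lower over all genes. Over the 10 CD11c+ tumor libraries of both genotypes, 28 members were above all 4 naive libraries and 0 below, against 5.12% and 6.28% of all genes. Over the 11 CD11c- tumor libraries, 6 members were above all 4 naive libraries and Cks2 below them, against 10.1% and 10.7% of all genes.

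Markers of other cells moved with the knockout contrast too. B16 markers without Mitf were at 70.5 to 1101 CPM in CD11c+ and 86.2 to 410 CPM in CD11c- knockout IM, against 7.23 and 3.87 CPM in naive knockout macrophages. Alveolar markers were at 1724 to 11951 CPM in CD11c+ and 324 to 556 CPM in CD11c- knockout IM, against 2544 and 5915 CPM in naive knockout macrophages. T and NK cell markers were at 41.0 to 217 CPM in CD11c+ and 4.53 to 24.6 CPM in CD11c- knockout IM, against 122 and 218 CPM in naive knockout macrophages. Cd3d, Cd3e and Cd3g together summed to only 0.577 and 1.41 CPM in these naive libraries (21 and 65 reads). Monocyte markers were at 313 to 828 CPM in CD11c+ and 2127 to 2963 CPM in CD11c- knockout IM, against 813 and 658 CPM in naive knockout macrophages. The part of these cells in the result was not tested.

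The third comparison set knockout against WT cells, the question the IL9R chimeras were made for. The Il9r reads went against these labels, so the directions hold only for the libraries as labelled. For libraries labelled Il9r KO against IL9R WT over both subsets, edgeR called 0 members, and 0.0521% of genes were called in either direction. At an unadjusted p under 0.05, 1 member and 4.18% of genes passed, and DESeq2 called 1 member. Both were Kif18b, chosen here after its values were seen, with 141, 25 and 172 reads in CD11c- Il9r KO libraries against 0 and 0 in CD11c- WT libraries, and 88, 56 and 151 reads in CD11c+ Il9r KO libraries against 110 and 3 in CD11c+ WT libraries. The median log2 fold change was 0.46 over the mitotic genes, of which 20 of 22 were positive, and 0.05 over the replication genes, of which 12 of 16 were positive. Over all genes 53.3% were positive, with a median of 0.02. By subset the mitotic median was 0.15 in CD11c+ and 0.62 in CD11c- IM.

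Mki67 had 30.2, 14.3 and 24.6 CPM in CD11c+ Il9r KO libraries against 33.6 and 14.2 CPM in CD11c+ WT libraries, and 12.4, 5.41 and 13.1 CPM in CD11c- Il9r KO libraries against 9.55 and 3.74 CPM in CD11c- WT libraries. The genotypes overlapped in both subsets, at 0.29 ± 0.47 on the log2 scale. Top2a had 16.6, 15.0 and 42.6 CPM in CD11c+ Il9r KO libraries against 26.8 and 12.0 CPM in CD11c+ WT libraries, and 12.5, 3.59 and 17.4 CPM in CD11c- Il9r KO libraries against 6.21 and 2.96 CPM in CD11c- WT libraries (0.82 ± 0.55). The other folds were 0.45 ± 0.35 for Cdk1, 0.06 ± 0.30 for Mcm2, -0.03 ± 0.13 for Pcna and 0.16 ± 0.39 for Rrm2, and the lowest was Cdt1 at -0.16 ± 0.16. None passed, and each edgeR adjusted p was 0.99997.

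Leaving out both libraries labelled Il9r KO 3, which held the most B16 marker RNA, left 0 members called and a median log2 fold change over the 40 of 0.06, against 0.29 with them. The highest mitotic means within the CD11c+ and CD11c- Il9r KO groups were those of the libraries numbered 3, at 4.03 and 3.65 log2 CPM. With the number as a block, in which the libraries numbered 3 have no WT partner, 0 members were called and the median was 0.10. The paired differences in mitotic mean, Il9r KO minus WT, were -0.21 and 0.53 in CD11c+ IM and 0.26 and 0.42 in CD11c- IM. B16 markers without Mitf were at 70.5 to 1101 CPM in tumor libraries labelled Il9r KO, against 47.9 to 144 CPM in IL9R WT tumor libraries, and their part in the medians was not tested.

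For ARG1 CKO against WT over both subsets, edgeR called 0 members, with 0.0372% of genes called, and DESeq2 called 0. At an unadjusted p under 0.05, 3.86% of genes passed and 1 member, Cdc6 at -1.09 ± 0.38 (edgeR adjusted p = 0.9999). Cdc6 had 0.773 and 1.69 CPM in CD11c+ ARG1 CKO libraries against 5.16, 5.25 and 6.59 CPM in CD11c+ WT libraries, with no overlap. The share of all genes without overlap between these few libraries was not counted, so this cannot be called particular to Cdc6. In CD11c- IM it had 3.69, 2.82 and 4.35 CPM in ARG1 CKO libraries against 1.86, 6.08 and 2.68 CPM in WT libraries, which overlapped. The median log2 fold change was 0.14 over the mitotic genes (13 of 22 positive) and -0.12 over the replication genes (5 of 16 positive). Over all genes 45.3% were positive, with a median of -0.02.

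Mki67 had 30.4 and 15.8 CPM in CD11c+ ARG1 CKO libraries against 6.38, 37.8 and 18.9 CPM in CD11c+ WT libraries, and 8.32, 16.8 and 10.2 CPM in CD11c- ARG1 CKO libraries against 3.62, 15.2 and 6.14 CPM in CD11c- WT libraries. The genotypes overlapped in both subsets (0.32 ± 0.44). Mcm2 had 46.3 and 36.7 CPM in CD11c+ ARG1 CKO libraries against 42.9, 78.5 and 46.2 CPM in CD11c+ WT libraries, and 18.7, 35.4 and 32.9 CPM in CD11c- ARG1 CKO libraries against 20.6, 52.8 and 36.6 CPM in CD11c- WT libraries (-0.39 ± 0.28). The other folds were 0.25 ± 0.50 for Top2a, 0.12 ± 0.32 for Cdk1, -0.02 ± 0.12 for Pcna and -0.16 ± 0.37 for Rrm2, and Cenpf was the highest at 0.45 ± 0.69. None passed, with edgeR adjusted p-values of 0.9999. B16 markers without Mitf were at 112 to 337 CPM in ARG1 CKO tumor libraries, against 48.0 to 154 CPM in ARG1 WT tumor libraries.

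**Figure D5:**
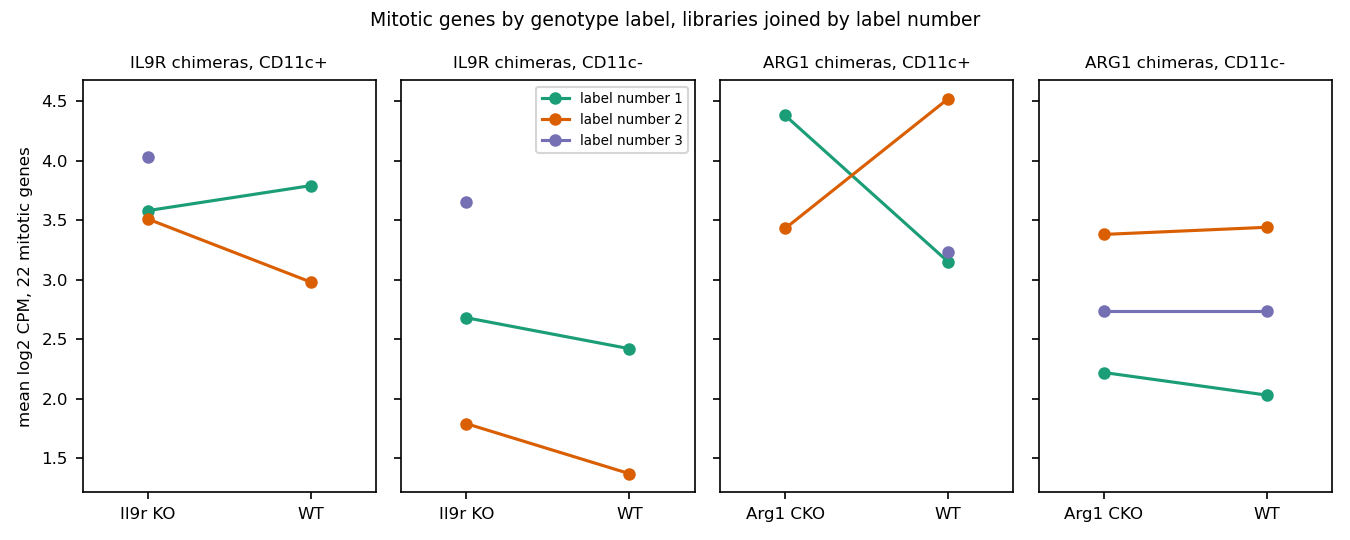
Mean log2 CPM over the 22 mitotic genes (y axis) by genotype label (x axis) for each chimera kind and subset, with lines joining libraries that carry the same label number. The lines run both ways, from a knockout minus WT difference of 1.23 to one of -1.08 in CD11c+ IM of the ARG1 chimeras. Numbers in the ARG1 chimeras were not taken as pairs. Joined libraries there had an r of -0.07 and -0.17 in CD11c+ IM, and of 0.38, 0.21 and 0.29 in CD11c- IM. Lines there join label numbers only.

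Whether the genotype difference varied between CD11c+ and CD11c- IM was tested as an interaction. For Il9r, edgeR called 0 members, 0% of genes and DESeq2 0 members, with 1 member (Kif18b) and 5.51% of genes at an unadjusted p under 0.05. The median of the interaction was -0.35 on the log2 scale, and -0.11 without both libraries labelled Il9r KO 3. For ARG1 CKO, edgeR called 0 members, 0% of genes and DESeq2 0 members, with 1 member (Cdc6) and 3.86% of genes at an unadjusted p under 0.05. The median over the members was 0.06.

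WT cells of the 2 chimera kinds were compared as well. Against ARG1 WT libraries, IL9R WT libraries had 0 members higher and 1 lower, with 0.231% of genes called higher and 0.0372% lower, and 5 of 40 members and 16.3% of genes passed at an unadjusted p under 0.05. The member called was Kif18b (edgeR adjusted p = 0.0377), with 110, 3, 0 and 0 reads in the IL9R WT tumor libraries, against 148, 393, 40, 120, 128 and 183 reads in the ARG1 WT tumor libraries. The call was lost under 9 of 14 alternatives, among them DESeq2. It was also lost without IL9R CD11c- WT 1, without IL9R CD11c+ WT 2, without ARG1 CD11c+ WT 1 or 2, and without any of the 3 ARG1 CD11c- WT libraries. The median log2 fold change of the 40 was -0.34, with 8 positive, while 50.6% of all genes were positive.

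Between libraries of the same group the mitotic genes varied more than the replication genes. The median SD of log2 CPM within groups was 0.82 over the mitotic genes, from 0.26 for Cks2 to 1.36 for Cenpf, and 0.46 over the replication genes, from 0.19 for Pcna to 0.93 for Ccne2. Over the 10461 genes at least as high as the lowest member it was 0.34. The median distance between the lowest and highest tumor library was 3.46 log2 units for mitotic and 2.0 for replication genes. Pcna is also used in DNA repair and is transcribed outside division, and Cks2 was the mitotic gene with the least spread.

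The members moved together from library to library. Of the 40, 23 had their highest tumor level in ARG1 CD11c+ WT 2 and 8 in ARG1 CD11c+ CKO 1, while 14 had their lowest in IL9R CD11c- WT 2 and 8 in IL9R CD11c- KO 2. Within groups 1 library led most members, with 38 of 40 highest in ARG1 CD11c+ CKO 1 and 36 in ARG1 CD11c+ WT 2. The same held for IL9R CD11c- KO 3 and IL9R CD11c- WT 1, each highest in its group for 35 members, and for ARG1 CD11c- WT 2, with 34. The ARG1 CD11c+ CKO and IL9R CD11c- WT groups held only 2 libraries each. The share of all genes that each library led was not counted, so these leads cannot be called particular to the members. The naive knockout libraries, of 1 each, stood above their naive WT partners for 18 of 22 mitotic genes in the IL9R chimeras (median log2 difference 0.8) and 17 of 22 in the ARG1 chimeras (0.46), a difference that was not tested. For replication genes these counts were 9 of 16 (0.06) and 11 of 16 (0.18). The median log2 difference over all genes was 0.03 in the IL9R and -0.03 in the ARG1 chimeras.

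Further genes of the pathway were read from lists that share no gene with the members. Between CD11c+ and CD11c- WT IM, 11 of 64 other mitotic genes passed as higher and 0 as lower (median 0.94), and 6 of 50 other replication genes as higher and 0 as lower (median 0.42), while 5.44% of all genes passed as higher and 6.1% as lower. The smallest adjusted p-values were those of Cks1b, the sister of Cks2, at 1.06 ± 0.18 (edgeR adjusted p = 0.000582), and Dut, which removes dUTP, at 1.55 ± 0.29 (0.00139). H2afx, Cdca3 and Cenpa, the centromeric histone, were called at 1.00, 1.53 and 0.76, and E2f2, Gins1 and Fen1 at 1.22, 0.89 and 0.47. In knockout libraries the counts were 8 higher and 1 lower (Pttg1, securin, at -0.54 ± 0.15) of the mitotic list and 5 higher and 0 lower of the replication list, while 5.91% of all genes passed as higher and 6.36% as lower. Ckap2l (1.55), Racgap1 (1.02), Pola1 (1.39), Chaf1b (0.94), Rfc5 (0.66), H2afx (0.64) and Fen1 (0.45) were among them.

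Between the subsets, genes that act before S phase were called only lower in CD11c+ IM, and inhibitors of the cycle in both directions. Over all genes 5.44% were called higher and 6.1% lower in WT libraries, and 5.91% higher and 6.36% lower in knockout libraries. Of the 10 entry genes tested, 0 were called higher and 1 lower in CD11c+ WT IM, the D cyclin Ccnd3 at -0.49 ± 0.15 (edgeR adjusted p = 0.044), and in knockout libraries Ccnd3 (-0.64 ± 0.15, 0.00622) and its kinase Cdk6 (-0.77 ± 0.22, 0.0254) were lower. Of the 21 inhibitors tested, Cdkn2b, the Cdk4 and Cdk6 inhibitor p15, was higher in CD11c+ IM at 2.84 ± 0.66 in WT (adjusted p = 0.00772) and 2.17 ± 0.58 in knockout libraries (0.0176). Its relative Cdkn2d was lower at -0.80 ± 0.21 in WT (0.0162) and -0.89 ± 0.20 in knockout libraries (0.00552), and Cdkn1a, or p21, was lower in knockout libraries at -0.82 ± 0.23 (0.0213). No other entry gene or inhibitor was called between the subsets. Knockout against WT gave 0 calls on every one of these 4 lists for both genes.

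Against naive WT macrophages, 23 of 64 other mitotic and 18 of 50 other replication genes were called higher in CD11c+ WT IM and 10 and 6 in CD11c- WT IM, with 0 lower. Over all genes 13.7% were called higher in CD11c+ and 13% in CD11c- WT IM, so the shares in CD11c- IM were near that of all genes. Cdca3 was the most changed of those named, at 4.12 ± 0.43 in CD11c+ IM (edgeR adjusted p = 4.2e-05) and 2.62 ± 0.39 in CD11c- IM (0.000285). Of the entry genes, 5 of 10 were called higher in each subset, with Ccnd1 at 2.47 ± 0.28 in CD11c+ IM and 1.94 ± 0.27 in CD11c- IM, and Cdk6 at 2.03 ± 0.32 and 2.42 ± 0.33. Of the inhibitors, 5 of 21 were called lower and 0 higher in each subset (9.54% of all genes in CD11c+ and 10.2% in CD11c- IM were lower), among them Rbl2, a relative of the retinoblastoma protein, at -1.21 ± 0.30 in CD11c+ IM and -0.99 ± 0.30 in CD11c- IM. In knockout libraries the other mitotic list had 16 higher in CD11c+ IM and 12 in CD11c- IM, the other replication list 7 and 3, the entry genes 0 and 3, and the inhibitors 1 and 5 lower. Over all genes 3.02% in CD11c+ and 11.3% in CD11c- knockout IM were called higher, and 2.7% and 11.7% lower, so in CD11c- IM the share of the replication list was below that of all genes.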

How the data were processed

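PolyA RNA was sequenced from 25 libraries made with the QIAGEN micro kit, SMART-seq v4 and Nextera XT, per the labels' protocols. The authors deposited raw read counts per gene. Per the submitters' processing notes, FastQC 0.11.5, STAR 2.7.10a, featureCounts of Subread 2.0.3 and mm10 were used, and the annotation and strand setting are not given in the sources used here. All libraries carry 1 batch label. Exon lengths came from GENCODE vM21 (mm10), matched by symbol.

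The test was edgeR 4.0.16's robust quasi-likelihood test (R 4.3.3), two-sided, after filterByExpr and TMM scaling, with a Benjamini-Hochberg adjusted p under 0.05 over all genes tested, and summaries were made with pandas 2.3.3. The 21 tumor libraries were fitted together (13434 genes). Tumor and naive cells were compared within 12 WT libraries (13170 genes) and 13 knockout libraries (13356 genes) with chimera kind as a term. A subset or genotype difference is the mean over the groups concerned. The fits were tested on simulated data. Floors for a count of 0 cover counting error only. DESeq2 1.42.0, RLE scaling, no filter, left-out libraries, fewer groups and replicate blocks were the alternatives.

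Folds are given for Mki67, Top2a, Cdk1, Mcm2, Pcna and Rrm2, for up to 12 called members by smallest adjusted p (all if 5 or fewer) and for the highest and lowest. From each other list up to 4 called genes were eligible to be named. Interactions and chimera kinds are summarised without folds. Folds of Kif18b from fits with WT libraries are left out because 2 of them held 0 reads, though they count in the medians. The members and lists were chosen with earlier results of these data known. Same-numbered Il9r KO and WT libraries deviated together from their group means over 8111 genes (r of 0.25 to 0.46), so their numbers were taken as pairs. The main fit held no term for pairs, so the folds, SEs and calls given are unpaired. Pairs entered only through the block among the alternatives and the differences by number. Numbers in the other comparisons were not taken as pairs. For ARG1 CKO and WT libraries the r was 0.38, 0.21 and 0.29 in CD11c- IM and -0.07 and -0.17 in CD11c+ IM.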

Additional observations from a re-analysis of the deposited data

How the results depend on the processing

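Counts of called members other than those given here stayed within 1.5 times. DESeq2 called 21 (WT) and 12 (knockout) in CD11c+ against CD11c- IM, 1 for Il9r KO against WT, 0 for IL9R against ARG1 chimeras, and 15 (CD11c-) and 32 (CD11c+) in knockout tumor IM against naive. Fitting only the groups contrasted gave 10 for the knockout subsets and 0 for the chimera kinds, and leaving out both Il9r KO libraries 3, chosen after seeing the data, gave 11 for the knockout subsets. A replicate block gave 20 calls in WT and 18 in knockout subsets. Calls over all genes were also more numerous with DESeq2 and with the block in these comparisons. Same-numbered CD11c+ and CD11c- libraries deviated together at r of 0.19 to 0.40 in IL9R and -0.15 to 0.35 in ARG1 chimeras, so the numbers were not taken as pairs there, and the block changed no genotype call. With 1 library left out in turn, counts ran from 6 to 17 (WT subsets), 1 to 18 (knockout subsets), 0 to 1 (chimera kinds), 6 to 19 and 13 to 34 (CD11c- and CD11c+ WT against naive), and 1 to 17 and 0 to 22 (CD11c- and CD11c+ knockout against naive). A naive or tumor group left with 1 library was assumed to vary like the others.

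Log2 folds that changed sign were all uncalled. Under the block, Kif11 between WT subsets was -0.065. For Il9r KO against WT under the block, the block within subset and without both libraries 3, Mcm2 was -0.162, -0.174 and -0.188, Pcna 0.006, 0.003 and 0.001, and Rrm2 -0.304, -0.367 and -0.345. With RLE factors and with DESeq2, Pcna for ARG1 CKO against WT was 0.001 and Mki67 in CD11c- knockout IM against naive 0.011. With 1 library left out in turn, Kif11 between WT subsets ran from -0.796 to 0.798 and Pcna between knockout subsets from -0.024 to 0.213. For Il9r KO against WT the ranges were -0.138 to 0.324 for Mcm2, -0.095 to 0.038 for Pcna and -0.157 to 0.518 for Rrm2. For ARG1 CKO against WT they were -0.006 to 0.646 for Top2a, -0.211 to 0.381 for Cdk1, -0.014 to 0.845 for Cenpf, -0.145 to 0.091 for Pcna and -0.338 to 0.098 for Rrm2. Against naive they were -0.565 to 0.195 for Mki67 in CD11c- WT IM, -0.539 to 0.2 for Cks2 in CD11c+ WT IM and -0.454 to 0.593 for Mki67 in CD11c- knockout IM. Where a value moved, the cause was not tested. At this depth 2 libraries held 0 Kif18b reads, which allows up to 3 reads in each.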
